A study of Mus musculus with 2 samples.

Results

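The genes described here are the 5 that make up the BAFF and APRIL system: the ligands Tnfsf13b (BAFF) and Tnfsf13 (APRIL) and the receptors Tnfrsf13c (BAFF-R), Tnfrsf13b (TACI) and Tnfrsf17 (BCMA). They were chosen by name as 5 of the 32285 genes counted, to give the cells that hold the ligands and the receptors carried by B cells and plasma cells. The tissue was mouse pancreatic tumour, grown for 21 days from KPC pancreatic cancer cells implanted into the pancreas. KPC cells are a mouse pancreatic cancer line. Control tumours came from Porcnfl/fl littermates, labelled WT, and knockout tumours from Csf1r-Cre;Porcnfl/fl mice. Both groups thus carried the floxed Porcn allele, and the Cre, driven by the myeloid growth factor receptor gene Csf1r, was the labelled difference. Porcn encodes the enzyme that readies Wnt proteins for secretion, and Csf1r is transcribed across mononuclear phagocytes rather than in 1 kind of macrophage. The tumours of 5 mice were pooled into 1 library of live cells per genotype, so no replicate exists. Each difference below lies between 2 libraries, without a test, and the intervals in parentheses are exact 95% intervals for counting error only.

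BAFF and APRIL are cytokines of the tumour necrosis factor family that keep B lineage cells alive. BAFF binds all 3 receptors, whereas APRIL binds TACI and BCMA and also attaches to heparan sulfate chains. BAFF-R is the main survival receptor of mature B cells and acts through TRAF3 and the kinase NIK on the alternative NF-kB pathway. TACI serves activated and innate-like B cells, and BCMA supports long-lived plasma cells. BAFF is known to be made by myeloid and stromal cells and to respond to interferon, and APRIL is known from myeloid and epithelial cells.

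The control library held 173934025 UMIs (unique molecular identifiers, each standing for 1 captured transcript) over 13766 barcodes, and the knockout library 137527647 over 12251. After filtering, 11516 control and 10467 knockout cells remained, with medians of 12167.5 and 10109 UMIs per cell. The libraries shared 46 barcodes. The labels call the cells tumour-infiltrating, but epithelial/tumour-like cells were 61.2% of kept control and 34.5% of kept knockout cells. Unnamed clusters nearest to that class held a further 21.6% and 21.2%. In the monocyte/macrophage-like class Porcn had 7 UMIs over 344 cells of the control and 4 over 510 cells of the knockout library, too few to check the genotype. Immunoglobulin UMIs in cells that do not make them were more frequent in the knockout library, 0.00886% and 0.0326% of UMIs in the monocyte/macrophage-like class and 0.0041% and 0.0171% in the fibroblast-like class. The part of free RNA in the results below was not tested, and receptor levels in such classes are given as a background.

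All 5 genes were matched to RefSeq promoter sequences on GRCm38.p6, read as the 250 bases before each annotated start. The 3 sequences below are shown because the interferon-induced genes differed between the libraries in several classes and because the receptors' levels parted between B and plasma cells. Capitals mark the interferon-stimulated response element (GAAA and GAAA with any 2 bases between) in the first sequence. In the other sequences they mark any match to that element or to the NF-kB motif (GGG and CC with any 5 bases between), the octamer ATGCAAAT, the EBF motif (TCCC and GGGA with any 2 bases between), the purine-rich ETS motif GAGGAA or the AP-1 motif TGANTCA, on either strand, overlapping matches included.
Tnfsf13b, second annotated start, chr8:10006607-10006632, plus strand: tacaaaaactGAAAGTGAAAtgcgga
Tnfrsf17, chr16:11313559-11313808, plus strand: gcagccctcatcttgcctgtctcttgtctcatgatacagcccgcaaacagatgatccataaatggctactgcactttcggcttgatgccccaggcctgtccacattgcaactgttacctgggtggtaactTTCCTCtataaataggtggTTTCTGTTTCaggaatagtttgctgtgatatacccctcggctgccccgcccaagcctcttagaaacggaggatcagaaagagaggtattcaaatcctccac
Tnfrsf13b, chr11:61126505-61126754, plus strand: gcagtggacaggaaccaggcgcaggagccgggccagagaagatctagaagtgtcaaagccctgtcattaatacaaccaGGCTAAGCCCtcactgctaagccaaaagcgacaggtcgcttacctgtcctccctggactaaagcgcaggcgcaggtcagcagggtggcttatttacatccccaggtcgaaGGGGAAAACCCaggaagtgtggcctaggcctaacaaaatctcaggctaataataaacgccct
The Tnfsf13b element lies 16 to 7 bases before the start, and the window before the other Tnfsf13b start holds none of the 6 motifs. In Tnfrsf17 the element TTTCTGTTTC, on the minus strand, lies 101 to 92 bases before the start, next to an ETS match (TTCCTC). The interferon element occurs in 2.98% of 32851 promoter windows of this length, the NF-kB motif in 45.8%, the ETS motif in 23.3%, the AP-1 motif in 6.75%, the octamer in 1.60% and the EBF motif in 0.779%. In the Tnfrsf13b window the capitals are NF-kB matches, a common motif, and Tnfrsf13c and Tnfsf13 also held NF-kB matches. Of the interferon-induced genes listed for this study, 8 of the 13 with a promoter sequence held the element, for example Cxcl10 and Rsad2, which encode a chemokine and an antiviral enzyme.
Cxcl10, chr5:92349083-92349112, minus strand: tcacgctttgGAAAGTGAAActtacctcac
Rsad2, chr12:26456553-26456582, minus strand: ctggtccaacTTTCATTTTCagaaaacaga
These 2 windows are shown for comparison with the Tnfsf13b window, and a match is a description of the letters only.

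Over all kept cells, BAFF and the 3 receptors stood higher in the knockout library and APRIL slightly lower. Tnfsf13b (ENSMUSG00000031497, chr8:10006467-10039072) had 295 UMIs in the control and 506 in the knockout library. As counts per 1000000 UMIs (CPM) that was 1.75 (1.55 to 1.96) and 3.92 (3.58 to 4.27), a ratio of 2.24 (1.94 to 2.59). Tnfsf13 (ENSMUSG00000089669, chr11:69682846-69685784) had 2608 and 1721 UMIs, or 15.5 CPM (14.9 to 16.1) and 13.3 CPM (12.7 to 14.0), a ratio of 0.862 (0.810 to 0.916). B-like and plasma-like cells numbered 61 in the control and 646 in the knockout library, and not all receptor UMIs lay in them. Plasma-like and B-like cells held 41.2% and 0.926% of control Tnfrsf13b UMIs and 46.8% and 17.1% of knockout ones. For Tnfrsf13c these shares were 41.0% and 7.69% in control and 31.4% and 58.0% in knockout. Tnfrsf13c (ENSMUSG00000068105, chr15:82221743-82224369) went from 39 to 545 UMIs, a ratio of 18.2 (13.2 to 25.9). Tnfrsf13b (ENSMUSG00000010142, chr11:61126755-61149372) went from 216 to 1085, a ratio of 6.56 (5.66 to 7.62). Tnfrsf17 (ENSMUSG00000022496, chr16:11313812-11320074) went from 39 to 91, a ratio of 3.05 (2.07 to 4.55). Coordinates are those of GENCODE M21 on GRCm38.

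**Figure D1:**
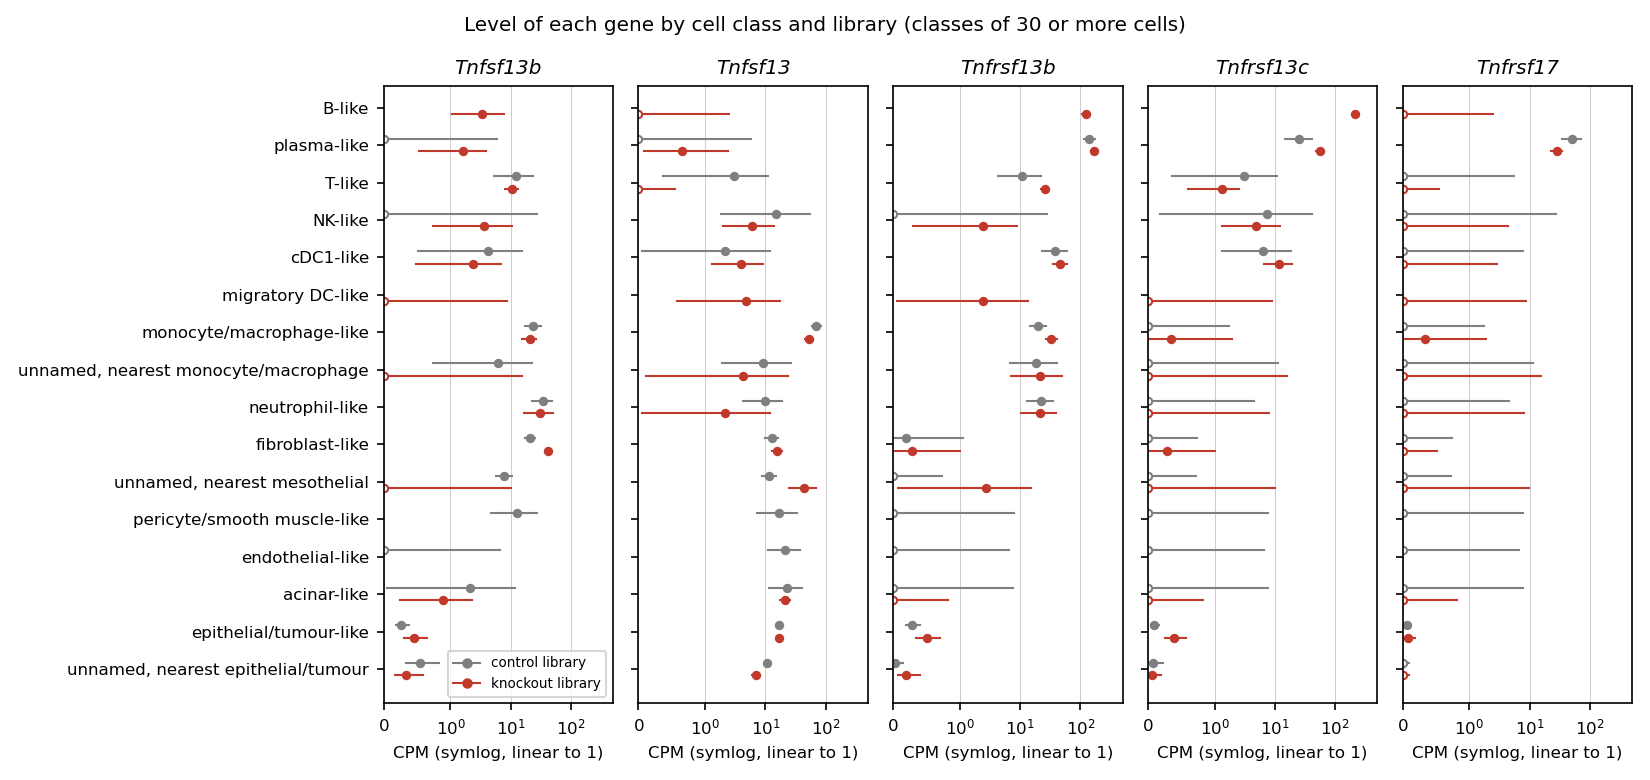
Level of each gene (CPM on an axis linear to 1 and logarithmic above) in each cell class of 30 or more cells, grey for the control and red for the knockout library, with exact 95% counting intervals and open circles for 0 UMIs. Tnfsf13b was 21.2 CPM in control and 42.2 CPM in knockout fibroblast-like cells, Tnfsf13 was 70.1 and 53.7 CPM in monocyte/macrophage-like cells, and Tnfrsf17 UMIs lay almost wholly in plasma-like cells.

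Fibroblast-like cells held the largest share of BAFF UMIs of any class in both libraries, a minority in the control, and their level differed between the libraries beyond counting error. Fibroblast-like cells held 106 Tnfsf13b UMIs in the control library, at 21.2 CPM (17.4 to 25.6), and 300 in the knockout library, at 42.2 CPM (37.6 to 47.3). The ratio was 1.99 (1.59 to 2.51), a log2 ratio of 0.99, so these intervals did not overlap although the value stayed under a 2-fold threshold. In this class 7.5% of 12700 genes with at least 20 UMIs were past 2-fold, 4.54% of them upward, and 0 of the 2 members that could be compared. Neutrophil-like cells had similar levels in both libraries, 28 UMIs at 33.9 CPM (22.5 to 49) and 14 at 30.3 CPM (16.6 to 50.9). Monocyte/macrophage-like cells had 50 UMIs at 23.7 CPM and 60 at 20.5 CPM, a ratio of 0.866 (0.585 to 1.29). In the class that expresses the Cre driver, the BAFF level was therefore not separable between the genotypes at this depth. T-like cells had 8 UMIs at 12.1 CPM and 70 at 10.3 CPM, a ratio of 0.855 (0.411 to 2.06). Pericyte/smooth muscle-like cells had 6 UMIs at 12.6 CPM in control and 1 in the 9 knockout cells. Low levels were found elsewhere. Epithelial/tumour-like cells had 0.265 and 0.454 CPM, knockout B-like cells 5 UMIs at 3.32 CPM and endothelial-like cells 0 UMIs in either library. Ordered by control level, the neutrophil-like, monocyte/macrophage-like and fibroblast-like classes had overlapping intervals, and in the knockout library the fibroblast-like class had the highest value.

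An unnamed cluster of stromal cells also held BAFF UMIs in the control library. It was led by Saa3, Col24a1, Ptgis and Timp1, its nearest marker class was mesothelial, and it held 260 control and 40 knockout cells. It contributed 40 Tnfsf13b UMIs at 7.86 CPM in the control and 0 in the knockout library, where its shallow total still allowed up to 8.07 CPM (3 counts). Among the 194 of its control cells without a UMI of another lineage's marker, 13 of these UMIs were left, at 3.99 CPM (2.12 to 6.82).

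The BAFF pool had a mixed myeloid and stromal make-up in the control and a larger fibroblast share in the knockout library. The fibroblast-like share of Tnfsf13b UMIs was 35.9% (30.5 to 41.7) in the control and 59.3% (54.9 to 63.6) in the knockout library, while these cells were 3.56% and 6.91% of kept cells. With each cell counted equally the knockout share was 44.4%. Myeloid classes gave 27.5% (22.4 to 32.9) and 15.2% (12.2 to 18.7). T-like cells gave 2.71% and 13.8% as they went from 1.65% to 15.5% of kept cells. Clusters with tumour markers gave 17.3% and 8.10% although they hold most cells.

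**Figure D2:**
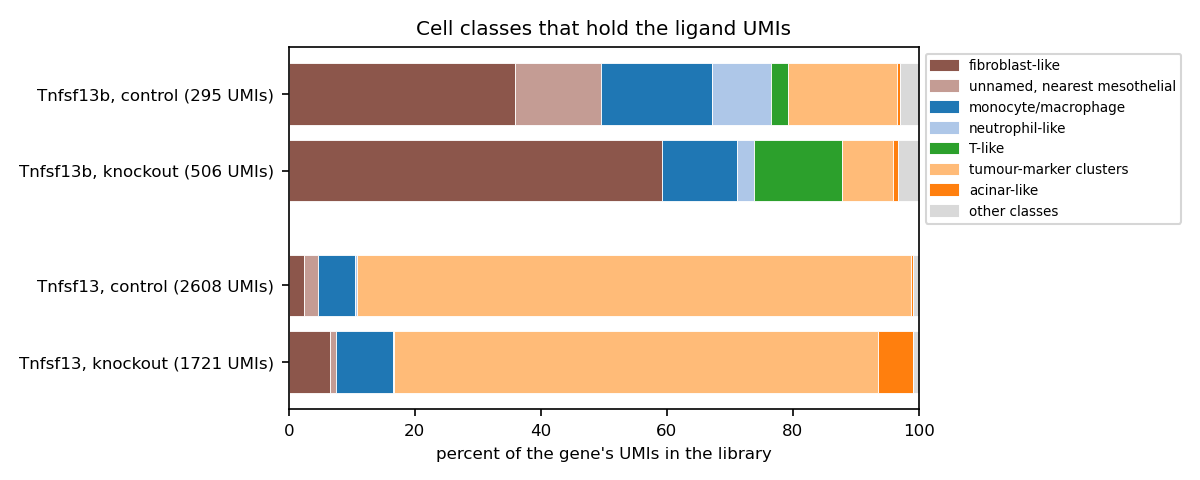
Share of each ligand's UMIs (percent, horizontal axis) held by each cell class in each library, with the UMI totals beside the bars. Fibroblast-like cells held 35.9% of control and 59.3% of knockout Tnfsf13b UMIs, whereas clusters with tumour markers held 87.9% and 76.9% of Tnfsf13 UMIs.

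Cell numbers and level per cell both entered the library total. Per 1000 kept cells there were 25.6 Tnfsf13b UMIs in the control and 48.3 in the knockout library. The control class shares combined with the knockout UMIs per cell of each class gave 27.8, and the knockout class shares combined with the control values gave 38.9. For Tnfsf13 the 2 libraries had 226.5 and 164.4 UMIs per 1000 cells, and the same exchanges gave 232.1 and 172.8. Neither exchange gave the whole difference for either ligand. The first Tnfsf13b exchange took the unnamed cluster nearest to mesothelial at its knockout level of 0 UMIs in 40 cells. The second took B-like cells at their level in 8 control cells. The 2 exchanges were therefore not weighed against each other.

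Within the fibroblast-like class, BAFF varied more between subclusters than between the libraries, and the subclusters were not equally filled. The highest level in each library was in a subcluster led by Scel and Sorbs2, with 54.0 CPM (8 cells, 6 UMIs) in control and 80.2 CPM (90 cells, 84 UMIs) in knockout. A subcluster led by Mest and Ptn had 29.8 CPM in 26 control cells and 63.6 CPM in 113 knockout cells. The subcluster led by Cxcl12 and Hp, genes of stromal cells that produce chemokine and acute-phase protein, had 39.3 CPM and 32.2 CPM. The subcluster led by Sema3c and Bmp6 went the other way, with 44.1 CPM (10 UMIs) and 17.8 CPM (17 UMIs). The subcluster led by Prg4 and Apod held 108 control cells at 11.6 CPM and 2 knockout cells at 0 UMIs. In all, 9 of the 12 subclusters had the higher level in the knockout library. The intervals of the 2 libraries overlapped in each of the 12. Control subcluster shares with knockout levels gave 24.4 CPM for the class, and knockout shares with control levels gave 30.7, between the measured 21.2 and 42.2. The first value took the Prg4 subcluster at its knockout level of 0 UMIs in 2 cells, whose interval reached 194 CPM. The second took the Scel subcluster at its level in 8 control cells, so the 2 exchanges cannot be weighed against each other. Without the Prg4 and Scel subclusters the class ratio was 1.48 (1.14 to 1.93). Leaving out the subclusters led by tumour genes and by T cell and cycling genes gave 1.89 (1.49 to 2.42). The summed epithelial/tumour markers in the class were 505 CPM in control and 230 CPM in knockout, and the monocyte/macrophage markers 2921 and 2500 CPM. Other lists were higher in the knockout library, with 115 and 183 CPM for neutrophil, 2.2 and 33.4 for T, 15.4 and 68.8 for acinar and 1.6 and 17 for B cell markers. Their part in the BAFF values was not tested. The class's own 9 fibroblast markers summed to 51540 and 33340 CPM. Among cells without a UMI of another lineage's marker, Tnfsf13b was 22.5 and 43.5 CPM.

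**Figure D3:**
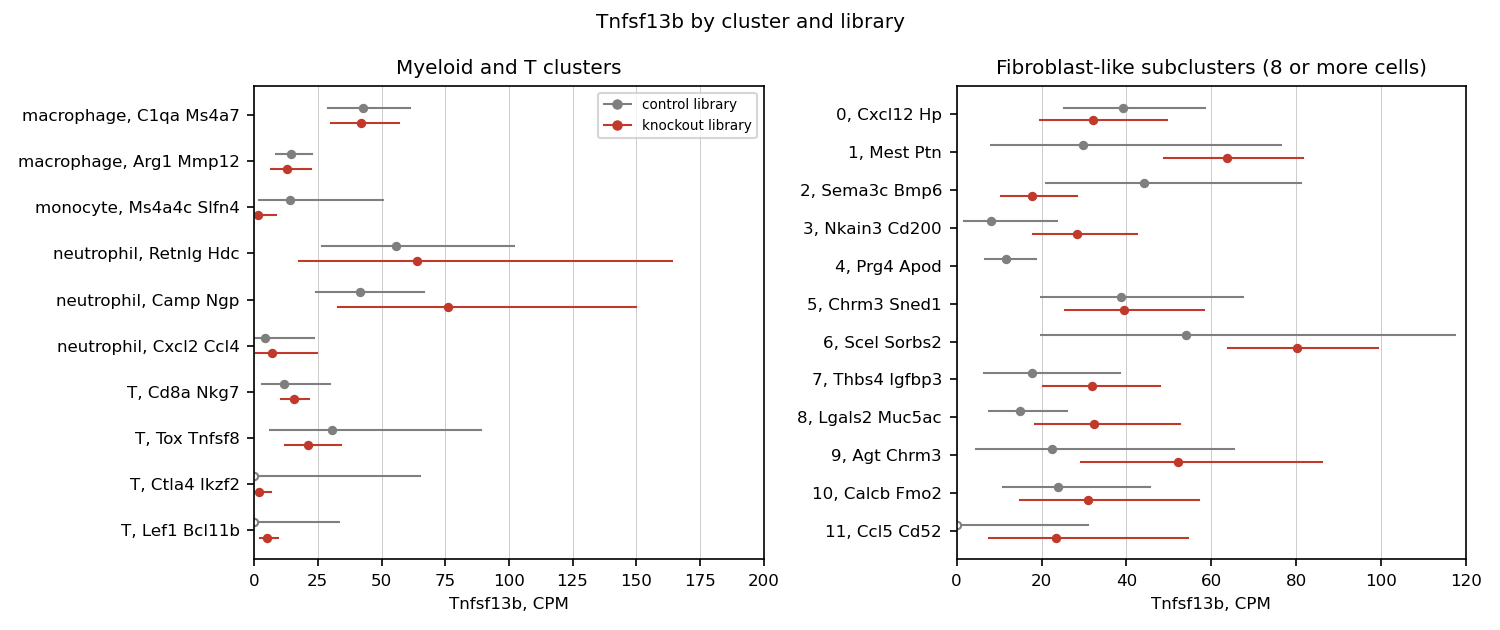
Tnfsf13b level (CPM) in myeloid and T clusters (left) and in subclusters of the fibroblast-like class (right), grey for control and red for knockout, with exact 95% counting intervals, each row named by leading genes. Macrophages led by C1q genes stood at 42.9 and 41.9 CPM, and the Scel subcluster of fibroblast-like cells at 54.0 and 80.2 CPM.

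Myeloid BAFF sat in particular states, and its level within each state had overlapping intervals in the 2 libraries. The macrophage cluster led by the complement genes C1qa, C1qb and C1qc held 30 control UMIs, 42.9 CPM (28.9 to 61.2), and 41 knockout UMIs, 41.9 CPM (30.1 to 56.9). The macrophage cluster led by Arg1 and Mmp12 had 14.4 CPM (8.51 to 22.7) and 12.9 CPM (6.65 to 22.5). The monocyte cluster led by Ms4a4c had 2 UMIs in 36 control cells and 1 in 152 knockout cells. Neutrophils parted in the same manner. The clusters led by Retnlg and by Camp and Ngp, genes of fresh and immature neutrophils, had 45.9 CPM (30.3 to 66.8) together in 159 control cells and 71.7 CPM (37.0 to 125) in 43 knockout cells. The cluster led by Cxcl2 and Ccl4 had 1 UMI in 134 control cells and 2 in 142 knockout cells. The like class level in neutrophils thus combined fewer high cells with a higher value in them, and those intervals overlapped. Among T cells, the cluster led by Cd8a had 11.7 and 15.4 CPM, and a cluster led by Tox and Tnfsf8, high in Cd4, had 30.4 CPM (3 UMIs) and 20.9 CPM (16 UMIs). The cluster high in Foxp3, the regulatory T cell factor, had 0 UMIs in 20 control cells and 2 UMIs in 303 knockout cells, at 1.83 CPM.

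BAFF and the interferon-induced genes are given side by side for each class. In neutrophil-like cells 12 of 14 interferon-induced list genes were past 2-fold upward, with a median log2 ratio of 1.71 against -0.05 over all genes tested there, while Tnfsf13b had a ratio of 0.894 (0.435 to 1.76). In monocyte/macrophage-like cells 8 of 15 were upward, with a median of 1.01 against -0.01. In fibroblast-like cells 0 of 15 were upward and 2 downward, with a median of -0.26 against 0.07, with a Tnfsf13b ratio of 1.99. In epithelial/tumour-like cells both values were upward, with 2 of 15 list genes past 2-fold, a list median of 0.76 against -0.03 and a Tnfsf13b ratio of 1.71 (0.993 to 2.96). In type 1 dendritic (cDC1-like) cells 8 of 15 were upward (3.63% of all genes), with a median of 1.28 and 2 and 3 Tnfsf13b UMIs. T-like cells had 3 of 15 (4.38%), with a median of 0.17. The unnamed tumour-marker clusters had 4 of 15 (2.38%), a median of 0.59 and a Tnfsf13b ratio of 0.619 (0.278 to 1.32). The unnamed monocyte/macrophage cluster had 3 of 14 (6.27%) and 2 and 0 Tnfsf13b UMIs. Plasma-like cells had 0 of 9 upward and 1 downward, with 0 and 5 Tnfsf13b UMIs. Cells of 1 library were also split by their interferon-induced share. Knockout monocyte/macrophage-like cells with more than the median share of interferon-induced UMIs had 18.7 CPM of Tnfsf13b (12.3 to 27.2), and the others had 22.3 CPM (15.4 to 31.3). For knockout fibroblast-like cells these values were 40.3 and 44.3 CPM, and for knockout neutrophil-like cells 15.2 CPM (3 UMIs) and 41.7 CPM (11 UMIs). Low-interferon cells had the higher point value in these 3 splits, with overlapping intervals. In knockout T-like cells the order was 11.8 above and 9.06 below the median. Control values above and below the median were 17.4 and 25.7 CPM for fibroblast-like and 23.1 and 24.3 for monocyte/macrophage-like cells. They were 27.3 and 36.9 CPM for neutrophil-like cells, and 0 UMIs and 20.5 CPM (8 UMIs) for T-like cells. The splits were made over whole classes, and a link between BAFF and interferon was not tested.

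**Figure D4:**
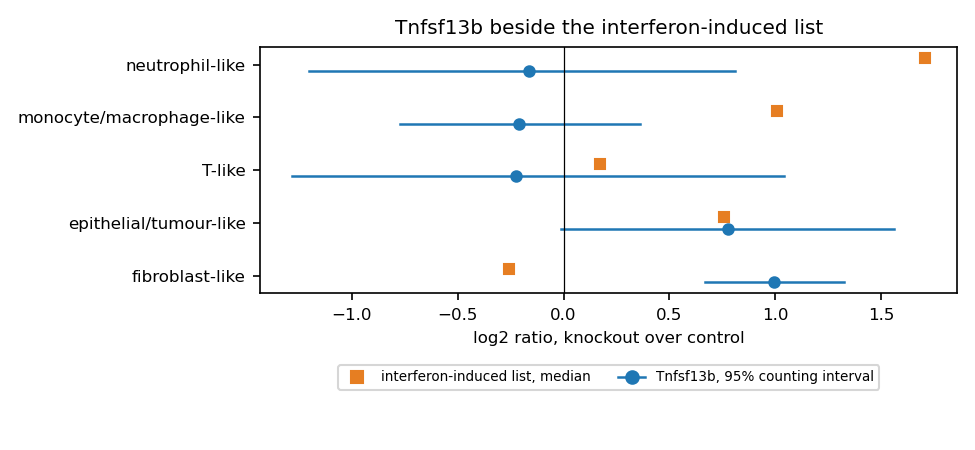
Log2 ratio of knockout over control (horizontal axis) for Tnfsf13b (blue points with exact 95% counting intervals) and the median of the interferon-induced list (orange squares) in 5 cell classes. The list median was 1.71 in neutrophil-like and -0.26 in fibroblast-like cells, where Tnfsf13b had ratios of 0.894 and 1.99 on the linear scale.

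Most APRIL UMIs lay in clusters with tumour markers, which also held most cells of either library. These clusters held 87.9% (86.5 to 89.1) of control and 76.9% (74.8 to 78.9) of knockout Tnfsf13 UMIs. Epithelial/tumour-like cells were 61.2% and 34.5% of kept cells, and the unnamed clusters nearest to them 21.6% and 21.2%. Over all kept cells Tnfsf13 stood at 15.5 CPM in control and 13.3 CPM in knockout, so the shares do not mark tumour cells as a rich source. Epithelial/tumour-like cells had 1874 UMIs at 16.6 CPM in control and 1078 at 16.9 CPM in knockout, a ratio of 1.02 (0.945 to 1.10). Unnamed clusters nearest to that class had 417 UMIs at 10.8 CPM and 245 at 6.87 CPM, a ratio of 0.637 (0.542 to 0.747). The lower value lay in the cluster led by Hmga2 and Grem1, with 7.62 and 5.03 CPM, and in the cluster led by Tenm4, with 13.9 CPM (33 UMIs) and 6.54 CPM (14 UMIs). Tumour clusters with gastric or intestinal genes had the most APRIL. The cluster led by Lgals4 and Gkn2 had 24.7 CPM (21.8 to 28.0) and 29.7 CPM (23.6 to 37.0), and the Muc5ac cluster 22.1 CPM (20.4 to 23.9) and 24.0 CPM (21.6 to 26.7). Cycling tumour cells had less, 6.24 and 9.06 CPM. Acinar-like cells, the enzyme-making cells of the normal gland, had 23.0 and 21.1 CPM and gave 5.52% of knockout against 0.422% of control UMIs, as their number went from 39 to 314.

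Macrophages had the highest APRIL level of any class, with a lower value in the knockout library that was not beyond counting error under every setting. Monocyte/macrophage-like cells had 148 UMIs at 70.1 CPM in control and 157 at 53.7 CPM in knockout, a ratio of 0.765 (0.607 to 0.964). Of 10091 genes tested in this class 7.47% were past 2-fold, and 0 of the 3 members tested. The difference was clearest in the Arg1 and Mmp12 cluster, with 77.4 CPM (62.7 to 94.4) and 47.2 CPM (34.3 to 63.4). The C1q cluster had 67.2 and 56.2 CPM, and the Ms4a4c cluster 28.1 CPM (4 UMIs) and 53.4 CPM (35 UMIs). The interval held 1.0 under the strict cell filter (0.866; 0.674 to 1.11) and at Leiden resolution 2 (0.823; 0.644 to 1.05), and the ratio was 0.992 when each cell counted equally. Fibroblast-like cells had 12.8 and 15.8 CPM, and the unnamed Saa3 cluster had 58 UMIs at 11.4 CPM and 16 UMIs at 43.0 CPM (24.6 to 69.9). T-like cells had 2 UMIs in 190 control cells and 0 in 1625 knockout cells. Neutrophil-like cells had 8 UMIs and 1 UMI, and knockout B-like cells 0. The Tnfsf13 locus shares its span with an antisense gene, Tnfsf13os (112 and 91 UMIs), and with the annotated read-through transcript Tnfsfm13, which also spans Tnfsf12 and was not counted apart. UMIs of that read-through cannot be told from those of Tnfsf13 here, nor can those of the antisense gene if strand was not used in counting, which is not given in the sources used here.

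Ligand and receptor-bearing cells moved apart in number. For each B-like or plasma-like cell sampled there were 4.84 Tnfsf13b UMIs in the whole control library and 0.783 in the knockout library. For Tnfsf13 the values were 42.8 and 2.66. These quotients describe sampled transcripts, not protein, and they follow from 61 against 646 such cells.

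BAFF-R had its highest level in B-like cells, although plasma-like cells carried it too. Only 8 control cells were B-like, against 446 in the knockout library, so levels are given for the knockout library. There Tnfrsf13c had 316 UMIs at 210 CPM (187 to 234), and Tnfrsf13b had 186 UMIs at 123 CPM (106 to 142). Tnfrsf17 had 0 UMIs, which allowed up to 1.99 CPM. The 8 control cells had 3 Tnfrsf13c and 2 Tnfrsf13b UMIs. Among the knockout cells 130 of 446 had a UMI of Tnfrsf13c alone, 69 of Tnfrsf13b alone, 68 of both and 179 of neither. With each cell thinned to 1000 UMIs, which left out 6 shallow cells, 18.9% (15.3 to 22.8) had a Tnfrsf13c UMI. The thinned share for Tnfrsf13b was 10.5% (7.76 to 13.7). Unthinned, the shares over all 446 cells were 44.4% and 30.7%. Knockout plasma-like cells, deeper with a median of 14863 UMIs, had an unthinned Tnfrsf13c share of 46.0%. In knockout T-like cells the thinned share for Tnfrsf13c was 0.0629%. The median before thinning was 3342 UMIs per cell there against 2963 in B-like cells. Between the 6 B-like subclusters of 38 or more knockout cells, Tnfrsf13c ranged from 155 to 265 CPM and Tnfrsf13b from 77.5 to 142 CPM. The subcluster led by Igha, Jchain and Bhlhe41, genes of antibody secretion and of innate-like B cells, had 142 CPM of Tnfrsf13b (101 to 195) and 175 CPM of Tnfrsf13c (129 to 232). Its Tnfrsf13b value was close to those of 3 other subclusters, at 136 to 139 CPM.

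Plasma-like cells as a class carried all 3 receptors, and their balance differed between the libraries. There were 53 such cells in control and 200 in knockout. UMIs of all 3 receptors were found together in 3 control and 18 knockout cells, and of none in 11 and 28. Tnfrsf13b had 89 UMIs at 141 CPM and 508 at 167 CPM, a ratio of 1.18 (0.944 to 1.50). Tnfrsf13c had 16 UMIs at 25.3 CPM and 171 at 56.1 CPM, a ratio of 2.22 (1.33 to 3.97). Tnfrsf17 had 32 UMIs at 50.6 CPM and 85 at 27.9 CPM, a ratio of 0.551 (0.363 to 0.856). With these cells BAFF-R was thus higher and BCMA lower in the knockout library, and the interval for TACI held a ratio of 1.0. Of the 3 members 1 (Tnfrsf13c) was past 2-fold, where 16.8% of 8503 genes were, 13.5% of them upward. Immunoglobulin transcripts made up 41.4% of UMIs in control and 30.9% in knockout plasma-like cells. The Tnfrsf13b ratio ranged from 1.0 to 2.57 over the alternative settings, and its interval lay above 1.0 under several of them, such as the strict filter (1.13 to 1.75). Over the non-immunoglobulin UMIs the ratios were 1.0 for Tnfrsf13b, 1.88 for Tnfrsf13c and 0.467 for Tnfrsf17. The lower Tnfrsf17 value depended on how cells were chosen and grouped. Its interval held 1.0 with the loose cell filter (0.843; 0.572 to 1.26), with each cell named by its own markers (0.689; 0.465 to 1.04) and in the main plasma cluster alone (0.674; 0.439 to 1.05). At Leiden resolution 0.5 its ratio was 1.19 (0.807 to 1.78), and there the class took in a cluster of 69 control and 35 knockout cells led by Igkc, Jchain, Slpi, S100a9 and Cxcl2. Markers of fibroblasts also differed within the class, with a summed level of 1375 CPM in control (0 of 9 genes at 0) and 25.6 CPM in knockout plasma-like cells (3 of 9 at 0), and their part in the receptor values was not tested. The summed monocyte/macrophage list was 1435 and 1946 CPM, with 6 and 4 of 13 genes at 0. Among cells without a UMI of another lineage's marker, 19 control and 91 knockout cells, Tnfrsf17 had 4 UMIs at 29.5 CPM and 29 at 23.9 CPM, a ratio of 0.810 (0.285 to 3.17).

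BCMA differed by the heavy chain that a cell used. Cells whose main heavy chain was Ighm (IgM) had 119 CPM (66.7 to 197) in 11 control cells and 61.3 CPM (35.7 to 98.1) in 19 knockout cells. IgG cells had 35.4 CPM (20.2 to 57.5) in 36 control cells and 14.1 CPM (9.55 to 19.9) in 146 knockout cells. IgA cells, marked by Igha, had 1 UMI in 6 control cells and 72.2 CPM (50.9 to 99.5) in 29 knockout cells. In the knockout library the IgG value thus lay below the IgM and IgA values without overlap. Cycling plasma-like cells, 2 in control and 45 in knockout, had 207 CPM of Tnfrsf13b (179 to 237) and 81.1 CPM of Tnfrsf13c (64.3 to 101) in the knockout library. Tnfrsf17 stood at 11.1 CPM (5.55 to 19.9) in the subcluster of cycling cells and at 75.7 CPM (52.5 to 106) in the subcluster led by Ighm and Igha. The cycling cells, almost all from the knockout library, thus sat at the low end for BCMA. Over non-immunoglobulin UMIs the cycling subcluster had 232 CPM of Tnfrsf13b, within the 196 to 295 of the other knockout subclusters, and 90.4 CPM of Tnfrsf13c against 89.3 in the next one.

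**Figure D5:**
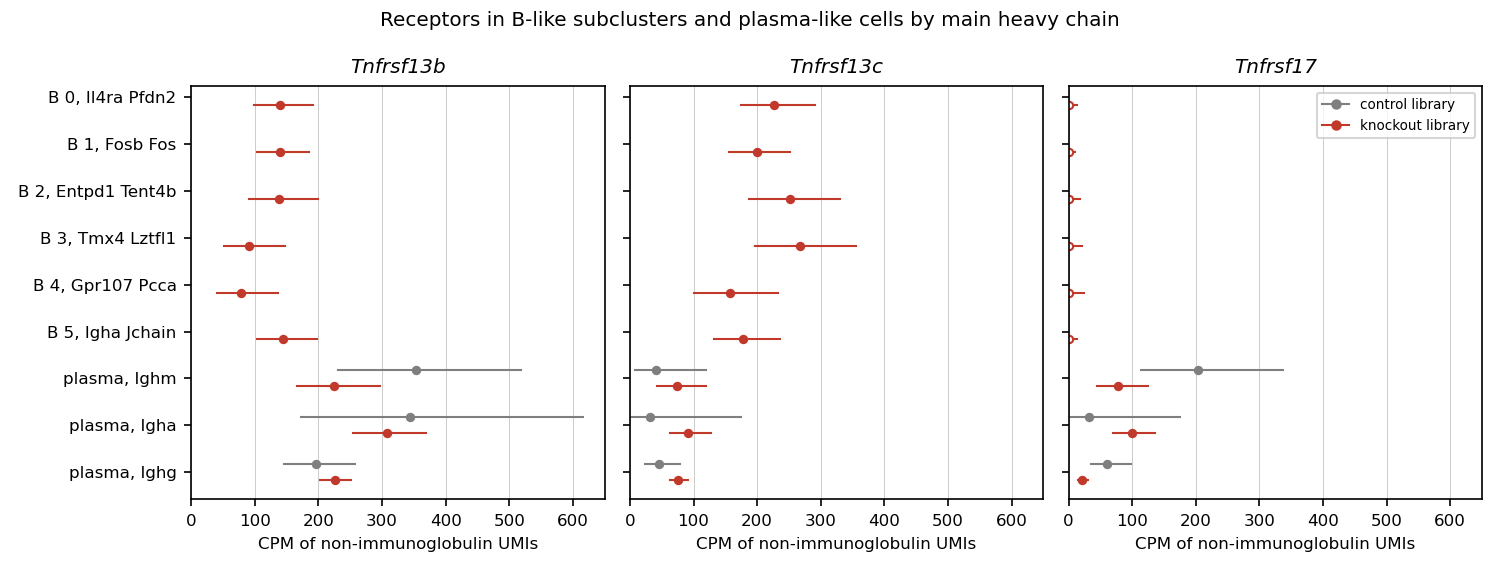
Level of the 3 receptors (CPM of UMIs that are not immunoglobulin) in B-like subclusters and in plasma-like cells by main heavy chain, grey for control and red for knockout, with exact 95% counting intervals and open circles for 0 UMIs. Tnfrsf17 was at 0 UMIs in each B-like subcluster shown and at 99.1 CPM in knockout Igha cells against 21.2 CPM in knockout Ighg cells.

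Set side by side within the knockout library, B-like and plasma-like cells differed in all 3 receptors. As CPM of non-immunoglobulin UMIs, Tnfrsf13c was 212 in B-like and 81.2 in plasma-like cells, a ratio of 2.61 (2.16 to 3.17). Tnfrsf13b was 125 and 241, a ratio of 0.518 (0.435 to 0.614), and Tnfrsf17 was 0 and 40.4. Tnfrsf13c was past 2-fold, as were 33.4% of 9540 genes, and Tnfrsf13b lay just inside that threshold. Of the 9540 genes, 17.4% were past 2-fold toward B-like cells and 16.1% toward plasma-like cells. Of the listed genes that pass receptor signals on, 6 of 11 were past 2-fold toward B-like cells and 0 toward plasma-like cells. They included the adaptor Traf5 with 158 and 31.3 CPM, the ubiquitin ligase Birc3 with 224 and 50.3, and Map3k14, which encodes NIK, with 38.9 and 12.8. Of the NF-kB genes 4 of 10 were past 2-fold toward B-like cells, with Rel at 385 and 45.1 CPM and Nfkb1 at 264 and 88.8. Survival genes were split. Bcl2 was past 2-fold toward B-like cells, with 175 and 60.3 CPM, whereas 4 of 10 were higher in plasma-like cells, among them Bcl2l1 with 6.71 and 56.5, Pim1 with 73.9 and 364 and the death-promoting Bcl2l11 with 36.3 and 138. Of the surface receptors of B cells 12 of 15 were higher in B-like cells, such as Cr2 and Fcer2a, while the chemokine receptor Cxcr3 was lower, with 23.5 and 165 CPM. Sdc1, the syndecan that can hold APRIL at the surface of plasma cells, had 8.06 and 126 CPM. Most of these genes were named after their values were seen, and the classes were formed on the same cells, so the contrasts describe the classes.

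TACI was also found outside the B lineage. Monocyte/macrophage-like cells had 42 Tnfrsf13b UMIs at 19.9 CPM in control and 96 at 32.8 CPM in knockout, a ratio of 1.65 (1.14 to 2.43). The interval held 1.0 with the loose filter (1.34; 0.933 to 1.92), with doublets kept (1.39; 0.959 to 2.02) and at Leiden resolution 2 (1.32; 0.909 to 1.94). By cluster the ratio was 1.47 (0.840 to 2.64) in C1q macrophages and 0.566 (0.215 to 1.36) in Arg1 and Mmp12 macrophages, so the clusters with the most UMIs in both libraries did not share a direction. Conventional type 1 dendritic cells (cDC1-like) had 18 UMIs at 38.4 CPM and 58 at 45.7 CPM, a ratio of 1.19 (0.691 to 2.15). Of 7457 genes tested in that class 7.36% were past 2-fold, and 0 of the 1 member tested. Neutrophil-like cells had 21.8 and 21.7 CPM. T-like cells had 7 UMIs at 10.6 CPM and 177 at 26.1 CPM, a ratio of 2.47 (1.17 to 6.24). In T-like cells 1 of 2 members tested was past 2-fold (Tnfrsf13b), where 10.2% of 11261 genes were, 4.38% upward. The T cell signal was uneven, as the Foxp3-high cluster had 70.6 CPM (4 UMIs in 20 cells) and 62.3 CPM (68 UMIs in 303 cells) and the Cd8a cluster 0 UMIs and 8.63 CPM. The Foxp3-high cells thus had overlapping levels in both libraries, and they went from 20 of 190 to 303 of 1625 T-like cells. They held 4 of the 7 control and 68 of the 177 knockout UMIs. The Tox and Tnfsf8 cluster had 3 and 36 UMIs, a ratio of 1.55 (0.489 to 7.86). The remaining T clusters had 0 control UMIs and 30, 19 and 24 knockout UMIs. The part of each cluster in the class ratio was not tested. Cells without a UMI of Cd79a, Jchain or another lineage's marker still had 79.9 and 66.0 CPM in the Foxp3-high cluster. The monocyte cluster led by Lyz2 and Ccr2 had 72.3 CPM (47.2 to 106) in 78 knockout cells. As a background, fibroblast-like cells had 1 and 2 Tnfrsf13b UMIs, and epithelial/tumour-like cells 0.283 and 0.501 CPM, under the values of the myeloid and T classes. Tnfrsf13c outside the B lineage was seen in cDC1-like cells, with 3 UMIs at 6.40 CPM and 15 at 11.8 CPM. Tnfrsf17 had 1 UMI in knockout monocyte/macrophage-like cells, and 7 and 5 in epithelial/tumour-like cells, where 4 members were tested and 1 (Tnfrsf13c, from 11 to 25 UMIs) was past 2-fold against 7.5% of 16860 genes. A mixed cluster of 84 control and 40 knockout cells, grouped with the leukocytes but named by tumour markers, held 7 of the 7 control and 4 of the 5 knockout Tnfrsf17 UMIs. It also held 7 of 11 and 12 of 25 Tnfrsf13c UMIs, and 20 of 32 and 19 of 32 Tnfrsf13b UMIs of that class, so those values were set largely by few cells. In tumour-like cells without another lineage's marker Tnfrsf13c had 2 UMIs in each library.

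Most genes of the wider pathway lists lay within 2-fold between the libraries, outside the interferon-induced group. In each class compared the share of list genes past 2-fold was still above that of all genes. It was 15 of 70 against 7.36% in cDC1-like and 16 of 108 against 7.5% in epithelial/tumour-like cells. The unnamed tumour-marker clusters had 20 of 91 against 6.94%, and T-like cells 13 of 94 against 10.2%. The 119 listed genes covered ligand-cutting proteases, receptor shedding, heparan sulfate carriers, receptor-proximal signalling, NF-kB, survival genes and others. In fibroblast-like cells 9 list genes of 86 tested were past 2-fold upward and 4 downward, 5 of the 9 being immunoglobulin constant genes. Of all genes tested there 4.54% were upward and 2.96% downward. In monocyte/macrophage-like cells the list counts were 16 and 3 of 92, where 3.74% of all genes were upward and 3.74% downward. Of the 16, 8 were interferon-induced, such as Ifi44 with 43.1 and 210.9 CPM, and 5 were immunoglobulin constant genes. Neutrophil-like cells had 25 and 1 of 66, where 14.7% of 5785 genes were past 2-fold. Of the 25, 12 were interferon-induced, with Rsad2 at 551 and 3196 CPM. No member was past 2-fold there, with 0 of 2 tested. In plasma-like cells the counts were 11 and 6 of 71, where 13.5% of all genes were past 2-fold upward and 3.22% downward, so the upward share was near the background. By size of change the leading list genes were the survival gene Bcl2a1d, from 1 to 126 UMIs, Cd86, a costimulatory ligand, from 2 to 85 UMIs, the chemokine gene Cxcl10, lower with 23 and 19 UMIs at 36.4 and 6.24 CPM, and Rel, from 3 to 95 UMIs. Bcl2a1d has close paralogs, whose reads may be shared with it. Receptor-proximal genes were 0 of 11 past 2-fold in monocyte/macrophage-like and 0 of 11 in T-like cells. Gpc4, a heparan sulfate carrier, had 90 control and 5 knockout UMIs in the unnamed tumour-marker clusters, a ratio of 0.0602 (0.0191 to 0.146), where 6.94% of genes were past 2-fold. The 2 members tested there, Tnfsf13 and Tnfsf13b, were within 2-fold. In the unnamed monocyte/macrophage cluster 10.6% of genes were past 2-fold, with 7 list genes up and 1 down of 59.

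Genes whose pattern over the 25 class-by-library sums was most like that of a member were found by Pearson correlation of log2(CPM + 10) among 16094 genes, as a description over sums that share libraries and depth. For Tnfsf13b they were Reps2 (r = 0.85), Hacd4 (0.819), Hgf (0.815), Hp (0.796) and Smim4 (0.783), and for Tnfsf13 Ccl2 (0.832), Tpp1 (0.808), Lamp1 (0.805), Gm43625 (0.805) and Ctsl (0.796). Tnfrsf13c was most like Bfsp2 (0.96), Blk (0.949), Vpreb3 (0.948), Ms4a1 (0.947) and Gm43388 (0.946), several of them B cell genes. Tnfrsf13b was most like E330020D12Rik (0.918), A430035B10Rik (0.915), Ero1lb (0.912), Ighm (0.871) and Pou2f2 (0.86). Tnfrsf17 was most like immunoglobulin variable genes such as Ighv1-66 (1.0), and 82.1% of its control and 93.4% of its knockout UMIs lay in plasma-like cells. Its level was 50.6 and 27.9 CPM in the plasma-like sums and at most 0.342 CPM in the others. Its correlations thus rest on the plasma-like sums and show no link to particular variable genes. Between the ligands r was 0.304.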

How the data were processed

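Droplet single-cell RNA-seq (10x Genomics 3′ kit v3.1) had been done on 1 pooled library per genotype. The authors deposited raw UMI counts per gene and barcode, not normalized. Per the file headers they came from Cell Ranger 8.0.0, while the submitters' processing notes name Cell Ranger 3.1.3 and mm10. Of 32285 gene IDs, 32158 were found in GENCODE M21. Depth is given in the report. The 5 genes and the 11 gene lists were chosen with earlier results of these data known.

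Barcodes under 500 detected genes or above 15% mitochondrial UMIs were dropped. Scrublet (expected rate 0.08, scanpy 1.11.5) called 148 control and 341 knockout doublets, which were removed. Counts were normalized to 10000 per cell, log-transformed, and the 2000 most variable genes gave 30 principal components, 15 neighbours and Leiden clusters at resolution 1. Leukocyte clusters, and then single classes, were reclustered with these settings, without batch correction. Clusters were named "-like" from marker lists of 22 classes, with at least 3 detected markers needed, and otherwise stayed unnamed. Naming was rebuilt here, since no cell annotation was used.

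UMIs were summed per class and library. Levels are CPM with exact Poisson intervals, shares have exact binomial intervals and ratios exact conditional ones, all at 95%. A count of 0 is limited by 3 counts. Log2 ratios used a pseudocount of 1 UMI, and genes with at least 20 UMIs were compared at a 2-fold threshold. Classes were compared with 100 or more cells in each library, or 30 for plasma-like and dendritic classes. Interferon splits used each cell's share of UMIs in the list. All 5 genes are described. Other genes were named by rule, up to 5 per class with the largest log2 ratio whose interval leaves out 1, unless said otherwise. The ratio code was checked on simulated counts. Alternatives were other filters, doublets kept, Leiden resolutions 0.5 and 2, naming each cell by its own markers, averaging over cells, cells free of other lineages' markers and, added after the data were seen, non-immunoglobulin UMIs and left-out subclusters. Other tools were python 3.11.15, numpy 2.4.6, scipy 1.17.1, pandas 2.3.3, anndata 0.12.19, scikit-learn 1.9.0, igraph 0.11.9, leidenalg 0.10.2 and matplotlib 3.10.9.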

Additional observations from a re-analysis of the deposited data

How the results depend on the processing

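No paired analysis was possible because each genotype had 1 pooled library. Of 119 recomputed values of the 5 genes, 105 moved by less than their counting interval, 13 moved by more, and the Tnfrsf17 ratio in plasma-like cells changed direction. Among the 105, the Tnfsf13b ratio in neutrophil-like cells went from 0.894 to 1.18 (0.491 to 2.67) under the strict cell filter. Of the shares of cells with a UMI, which follow the thinning depth, 25 moved and 3 did not. With each cell counted equally, the ratio over all cells was 1.88 for Tnfsf13b and 0.780 for Tnfsf13, the Tnfsf13 ratio in monocyte/macrophage-like cells was 0.992, and the knockout myeloid and fibroblast-like shares of Tnfsf13b UMIs were 23.9% and 44.4%. The cell grouping mattered most for plasma-like cells. At Leiden resolution 0.5 their ratios were 1.19 for Tnfrsf17, 2.57 for Tnfrsf13b and 4.15 for Tnfrsf13c. The Tnfrsf13b ratio was 1.87 with the loose cell filter and 1.74 among cells free of other lineages' markers. The Tnfsf13b ratio in fibroblast-like cells was 2.59 with doublets kept, 2.77 at resolution 0.5 and 2.89 with each cell named by its own markers, and at resolution 0.5 the 260 control and 40 knockout cells of the Saa3 cluster joined the class. It was 1.48 without 2 subclusters, an alternative chosen after the data were seen. With at least 100 UMIs, fewer list genes were past 2-fold: plasma-like cells had 6, neutrophil-like cells 16, the monocyte/macrophage-like class 11 and its unnamed neighbour 1, fibroblast-like cells 5, tumour-like cells 9 and their unnamed neighbours 10, cDC1-like cells 4 and T-like cells 7. They came to 11 in plasma-like cells with a pseudocount of 5 UMIs. Under the strict filter Scrublet called 0 control doublets, so it did not work there. Few UMIs limit Tnfrsf17 (32 and 85 in plasma-like cells), control B-like cells (8) and T-like Tnfsf13b (8 control UMIs).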

Other observations

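Other signals that act on B cells differed by class, as values of 2 libraries with no replicates. Cxcl13, the chemokine that draws B cells through Cxcr5, had 102 UMIs at 48.3 CPM in control and 525 at 179.5 CPM in knockout monocyte/macrophage-like cells, a ratio of 3.71 (3.0 to 4.64). In fibroblast-like cells, named after the values were seen, it went the other way, with 71.0 CPM (63.8 to 78.8) and 18.9 CPM (15.8 to 22.3). The unnamed Saa3 cluster had 214 CPM of Cxcl13 in control. Epithelial/tumour-like cells had 10 and 117 Cxcl13 UMIs.

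Il4, a T cell cytokine that acts on B cells, had 38 UMIs in 190 control and 7 in 1625 knockout T-like cells, a ratio of 0.0180 (0.00678 to 0.0408). Furin, a protease that cuts BAFF and APRIL free and that was named after its values were seen, had 215 CPM in control and 220 CPM in knockout monocyte/macrophage-like cells. In neutrophil-like cells it had 84.8 CPM (66.1 to 107) and 171 CPM (135 to 213).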
